A study of Mus musculus with 1 sample.

Results

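The 10 genes described here, St8sia6, Camk4, Ext1, Inpp4b, Mllt3, Foxn3, Auts2, Ppm1h, Ust and Hivep1, are 10 of the 32285 genes of a single-cell RNA and T cell receptor library. They were named because they led T cell barcodes with few ribosomal protein transcripts in an earlier look at the same library, so they were chosen by the measured values of this contrast. Their low over high ratios are therefore a description, and nothing is supported with them. The library came from 1 mouse that carried autochthonous small cell lung cancer (SCLC), driven by conditional deletion of Rb1 and Trp53 in the lung after intratracheal Cre adenovirus on a C57BL/6 background. This animal was given vehicle (PBS). Its blood was lysed for red cells, T cells were enriched by negative selection, and the sample is labelled PBMC and T lymphocytes. With 1 library no condition could be compared and no test was possible. All intervals below are 95% exact intervals of the counts, they cover counting error only, and barcodes are not replicates.

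The 10 genes do not form 1 pathway. St8sia6, Ext1 and Ust encode enzymes that build or modify glycans. Camk4, Inpp4b and Ppm1h encode a kinase and phosphatases of intracellular signaling, and Mllt3, Foxn3, Auts2 and Hivep1 encode regulators of transcription and chromatin. Camk4 acts downstream of calcium entry in T cells, where antigen receptor signals raise calcium, and Inpp4b removes a phosphate from a product of phosphoinositide 3-kinase signaling. Ribosomal protein mRNAs are short, abundant and cytoplasmic, so their share of a barcode differs between cells and between RNA preparations. Freshly made transcripts, of short and long genes, are found in the nucleus, and where in the cell the RNA lay was not measured here.

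The matrix held 12855001 UMIs (unique molecular identifiers, each standing for 1 captured transcript) in 300213 barcodes. Barcodes with at least 1331 UMIs numbered 1600, and of these 615 had a ribosomal protein share of UMIs under 10% ("low") and 985 a share of 10% or more ("high"). Cd4-only barcodes had UMIs of Cd4 and none of Cd8a, Cd8b1 or Cd79a (142 low, 224 high), Cd8-only barcodes had UMIs of Cd8a or Cd8b1 and none of Cd4 or Cd79a (204 low, 502 high), and Cd79a barcodes had at least 1 UMI of the B cell gene Cd79a (28 low, 78 high). A total of 241 low and 181 high barcodes fell in no class. Over all 615 low barcodes, erythroid marker genes gave 403 UMIs per 10000 and neutrophil marker genes 63.1, against 0.0541 and 0.387 in the high barcodes, but within the Cd4-only and Cd8-only classes erythroid markers stayed at or under 0.202 per 10000. In the Cd8-only low barcodes 357 neutrophil marker UMIs lay in 4 barcodes, 180 of them in 1. In the Cd8-only high barcodes 228 lay in 4 barcodes, 225 of them in 1. Platelet marker genes gave 1.77 per 10000 in low and 1.03 in high Cd4-only barcodes, and 1.69 and 0.469 in Cd8-only barcodes.

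Several other measures moved with the split, and their part in the results was not tested. Median depth was 2719 UMIs in low against 4214.5 in high Cd4-only barcodes, 3381 against 7502 in Cd8-only barcodes and 2499.5 against 4057.5 in Cd79a barcodes. The pooled ribosomal protein share was 2.99%, 3.26% and 2.62% in the low and 25.4%, 33.4% and 25.1% in the high barcodes. Mitochondrial transcripts took 2.74% against 1.59%, 3.33% against 1.49% and 2.57% against 1.72%. A T cell receptor clonotype was assigned to 36.6% (exact interval 28.7 to 45.1) of low and 95.1% (91.4 to 97.5) of high Cd4-only barcodes, and to 26.0% (20.1 to 32.6) and 92.4% (89.8 to 94.6) of Cd8-only barcodes. The 6 T cell markers (Cd3d, Cd3e, Cd3g, Trac, Trbc1, Trbc2) were all detected in low and high barcodes of both T classes, summing to 14.7 per 10000 in low and 35.0 in high Cd4-only barcodes and to 12.5 and 28.6 in Cd8-only barcodes. T markers were thus present in the low barcodes, at a lower pooled level and with fewer clonotypes.

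The positions below follow RefSeq on GRCm38.p6, and the build named in the submitters' processing notes is GRCm38. Promoter windows of 300 bases, 250 before to 50 after a transcript start, were found for 7 of the 10 genes. St8sia6 and Inpp4b are shown because they are a gene nearly restricted to one T class and the gene with most member UMIs, and Ppm1h and Ust because they were higher in Cd8-only barcodes. Capitals mark the GC box, which was searched as GGGCGG on both strands.
St8sia6 (chr2:13793471-13793770, minus strand): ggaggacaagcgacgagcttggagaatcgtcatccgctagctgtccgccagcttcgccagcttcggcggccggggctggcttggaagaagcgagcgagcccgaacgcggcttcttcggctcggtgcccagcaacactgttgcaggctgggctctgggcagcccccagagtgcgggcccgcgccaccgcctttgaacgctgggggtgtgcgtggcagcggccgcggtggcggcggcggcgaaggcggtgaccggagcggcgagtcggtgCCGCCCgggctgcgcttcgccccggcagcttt
Inpp4b (chr8:81342312-81342611, plus strand): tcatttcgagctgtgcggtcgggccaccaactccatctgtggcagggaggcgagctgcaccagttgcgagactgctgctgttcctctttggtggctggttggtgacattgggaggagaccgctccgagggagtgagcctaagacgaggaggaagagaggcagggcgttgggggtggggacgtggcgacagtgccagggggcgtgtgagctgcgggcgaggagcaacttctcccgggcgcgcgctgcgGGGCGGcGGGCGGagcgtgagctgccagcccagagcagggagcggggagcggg
Ppm1h (chr10:122678512-122678811, plus strand): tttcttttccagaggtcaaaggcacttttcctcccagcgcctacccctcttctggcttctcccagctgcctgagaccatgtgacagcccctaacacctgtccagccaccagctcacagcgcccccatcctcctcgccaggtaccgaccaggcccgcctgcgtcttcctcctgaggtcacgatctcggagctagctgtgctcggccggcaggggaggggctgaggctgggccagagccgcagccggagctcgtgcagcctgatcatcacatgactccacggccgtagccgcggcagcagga
Ust (chr10:8518776-8519075, minus strand): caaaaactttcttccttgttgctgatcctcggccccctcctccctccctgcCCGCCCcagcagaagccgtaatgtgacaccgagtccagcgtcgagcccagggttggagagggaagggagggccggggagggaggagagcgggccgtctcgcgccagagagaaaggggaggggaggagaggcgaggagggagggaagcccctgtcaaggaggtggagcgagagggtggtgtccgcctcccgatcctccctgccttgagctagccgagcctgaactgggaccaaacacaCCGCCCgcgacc
The GC box occurred in 5 of the 7 windows (St8sia6, Inpp4b, Mllt3, Ust and Hivep1) and in 35.9% of 27025 windows of the same length over all genes in the table. No window of the 7 held the ETS core CCGGAA, which was in 15.2% of all windows, or the TATA element TATAAA, which was in 14.2%. The RUNX core TGTGGT, in 16.9% of all windows, and the E-box CACGTG, in 7.24%, were also in none of the 7, and all 4 were searched on both strands. The median GC content was 68.3% in the 7 windows against 52.7% over all, and the median number of CpG sites 25 against 7. The Ppm1h window held none of these motifs, and such matches are a description of letters only.

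The summed UMIs of the 10 genes were higher per 10000 UMIs in low than in high barcodes of all 3 classes. In Cd4-only barcodes they made up 116 per 10000 (exact interval 112 to 119) in low and 23.8 (22.8 to 24.7) in high barcodes, a ratio of 4.86 (4.63 to 5.11). In Cd8-only barcodes the rates were 82.0 (80.0 to 84.1) and 13.9 (13.5 to 14.2), a ratio of 5.92 (5.70 to 6.14). Cd79a barcodes held 46.9 (42.1 to 52.1) and 10.6 (9.55 to 11.7), a ratio of 4.44 (3.83 to 5.13). The order of the pooled levels was Cd4-only, Cd8-only and Cd79a at low and at high share, every low level lay above every high level, and no neighboring intervals in this order overlapped.

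The size of these ratios changed with the barcodes used. Among barcodes of 2000 to 4000 UMIs, where median depth was 2778 in low and 3180 in high Cd4-only, 3086 and 3262 in Cd8-only and 2586 and 3392 in Cd79a barcodes, the summed ratio was 3.73 in Cd4-only, 3.28 in Cd8-only and 4.88 in Cd79a barcodes. The larger ratio of the Cd8-only over the Cd4-only class was therefore not seen in this narrower range of depth, which kept 124 of 204 low and 61 of 502 high Cd8-only barcodes. With ribosomal protein and mitochondrial genes left out of the denominator, the ratios were 3.76, 4.12 and 3.42.

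**Figure D1:**
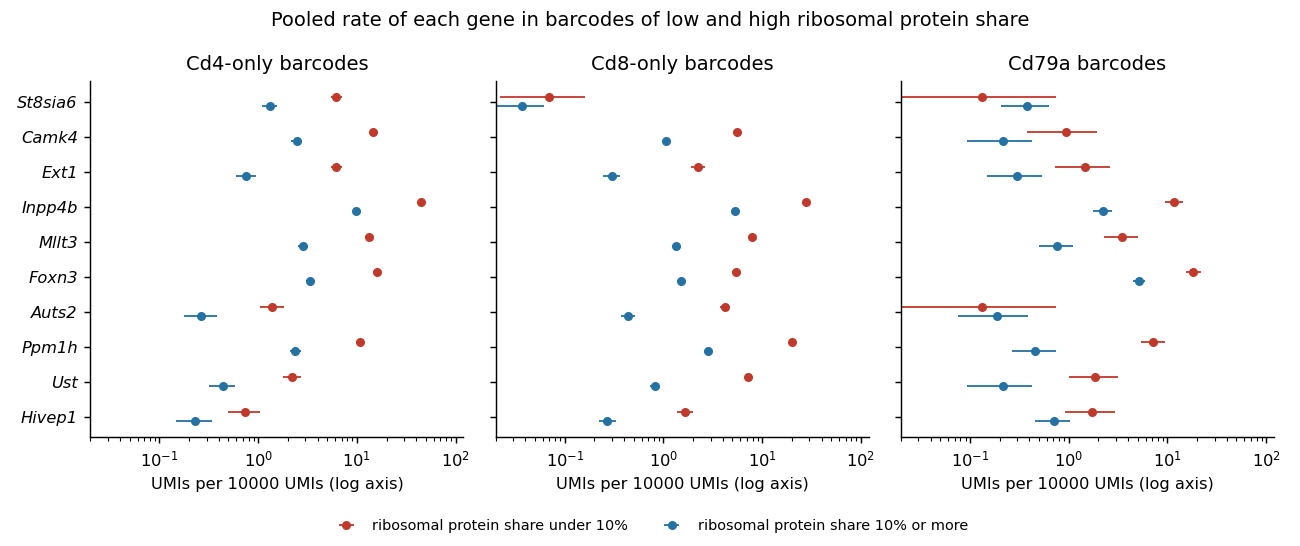
Pooled UMIs of each gene per 10000 UMIs (log axis) in barcodes with a ribosomal protein share under 10% (red) and of 10% or more (blue), with 95% exact Poisson intervals, some of which run past the left edge. In Cd4-only barcodes all 10 red points lie to the right of the blue ones, and in Cd79a barcodes St8sia6 and Auts2 do not.

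A gene was counted as measured in a class when it had at least 20 UMIs in the low and high barcodes of the class together. In Cd4-only barcodes all 10 members were measured and 10 had a low over high ratio of at least 2, beside 30.7% of the 7758 genes measured. In Cd8-only barcodes 9 were measured, since St8sia6 had 19 UMIs, and 9 reached 2, beside 39.8% of 9642 genes. In Cd79a barcodes 7 were measured, with St8sia6, Camk4 and Auts2 under the minimum, and 7 reached 2, beside 37.1% of 3988 genes. No measured member reached a ratio of 0.5 or less, which 17%, 13.2% and 25.4% of all genes did. Because the rule used this contrast, nothing is read from these counts. The median ratio of the measured members was 4.70, 6.16 and 4.91, beside 1.33, 1.60 and 1.29 over all genes. These values depend on the denominator. With ribosomal protein and mitochondrial genes left out, the medians over all other genes were 1.03, 1.12 and 1.05. Of those genes 19.6%, 24.0% and 28.5% then reached 2. Ranked by ratio, the members ran from 13 (Ext1) to 887 (Hivep1) in Cd4-only and from 22 (Auts2) to 1355 (Foxn3) in Cd8-only barcodes, so many genes that are no members had ratios as large.

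St8sia6 (ENSMUSG00000003418, chromosome 2, 13651018 to 13794734) encodes a sialyltransferase that links sialic acid to sialic acid on glycans. It had 244 UMIs in low and 138 in high Cd4-only barcodes, or 6.17 (5.42 to 6.99) and 1.31 (1.10 to 1.55) per 10000, a ratio of 4.71 (3.81 to 5.85). In Cd8-only barcodes it had 5 UMIs in low and 14 in high, and in Cd79a barcodes 1 and 14. Between the T classes St8sia6 was thus nearly restricted to Cd4-only barcodes at low and high share. In high Cd79a barcodes, which held fewer UMIs in all, its 14 UMIs lay in 7 of 78 barcodes and gave 0.379 (0.207 to 0.635) per 10000. With each barcode thinned to 1331 UMIs it was seen in 44.4% (36.0 to 52.9) of low and 14.7% (10.4 to 20.1) of high Cd4-only barcodes, against 1.47% (0.304 to 4.24) and 0.398% (0.0483 to 1.43) of Cd8-only ones. The unthinned shares were 59.9% and 36.2% of Cd4-only and 1.96% and 1.79% of Cd8-only barcodes.

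Ext1 (ENSMUSG00000061731, chromosome 15, 53068261 to 53346183) encodes a glycosyltransferase that polymerizes heparan sulfate chains. Its rate was 6.19 (5.44 to 7.02) in low and 0.759 (0.602 to 0.945) in high Cd4-only barcodes, a ratio of 8.16 (6.31 to 10.6), the largest of the 10 in that class. In Cd8-only barcodes the rates were 2.25 and 0.299, a ratio of 7.54 (5.90 to 9.66). In barcodes of 2000 to 4000 UMIs the ratios were smaller, at 3.89 (2.76 to 5.62) in Cd4-only and 3.76 (2.22 to 6.79) in Cd8-only barcodes. In Cd79a barcodes 11 UMIs in both low and high gave 4.91 (1.93 to 12.5), and 7 in both between 2000 and 4000 UMIs gave 1.90 (0.568 to 6.34).

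Ust (ENSMUSG00000047712, chromosome 10, 8204753 to 8518825) encodes a sulfotransferase that acts on uronyl residues of chondroitin and dermatan sulfate. It was higher in Cd8-only than in Cd4-only barcodes. Cd8-only rates were 7.24 (6.63 to 7.88) in low and 0.823 (0.734 to 0.919) in high barcodes, a ratio of 8.79 (7.63 to 10.1), which was 4.47 (2.95 to 7.06) between 2000 and 4000 UMIs. Cd4-only rates were 2.22 (1.78 to 2.74) and 0.436 (0.320 to 0.582), a ratio of 5.10 (3.53 to 7.45).

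Camk4 encodes calcium/calmodulin-dependent protein kinase IV (ENSMUSG00000038128, chromosome 18, 32934941 to 33195767). It stood at 14.5 (13.3 to 15.7) in low and 2.46 (2.17 to 2.78) in high Cd4-only barcodes, a ratio of 5.89 (5.08 to 6.85), and at 5.60 and 1.06 in Cd8-only barcodes, a ratio of 5.29 (4.60 to 6.09). After thinning it was seen in 77.5% of low and 33.0% of high Cd4-only barcodes and in 51.0% and 14.3% of Cd8-only barcodes. It had 7 and 8 UMIs in low and high Cd79a barcodes and none among the stricter Cd79a barcodes described below.

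Inpp4b (ENSMUSG00000037940, chromosome 8, 81342266 to 82134312) encodes a phosphatase of phosphatidylinositol bisphosphate. It gave the most UMIs of the 10 genes in both T classes. Its rates were 44.6 (42.6 to 46.8) in low and 9.69 (9.10 to 10.3) in high Cd4-only barcodes, a ratio of 4.61 (4.26 to 4.98). Cd8-only rates were 27.7 (26.5 to 28.9) and 5.27 (5.04 to 5.51), a ratio of 5.25 (4.93 to 5.58), which was 2.76 (2.37 to 3.22) between 2000 and 4000 UMIs. Unthinned, 95.8% of low and 89.3% of high Cd4-only barcodes held a UMI, and 94.1% and 80.5% of Cd8-only ones. After thinning the shares were 93.7% (88.3 to 97.1) and 65.2% (58.5 to 71.4) of Cd4-only and 87.7% (82.4 to 91.9) and 42.2% (37.9 to 46.7) of Cd8-only barcodes.

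Ppm1h (ENSMUSG00000034613, chromosome 10, 122677428 to 122945795) encodes a metal-dependent protein phosphatase that acts on Rab GTPases. Its rates were 19.9 (18.9 to 21.0) in low and 2.85 (2.68 to 3.02) in high Cd8-only barcodes, a ratio of 7.01 (6.47 to 7.59), which was 3.64 (2.98 to 4.49) between 2000 and 4000 UMIs. In Cd4-only barcodes they were 10.8 (9.77 to 11.8) and 2.38 (2.10 to 2.70), a ratio of 4.52 (3.86 to 5.31). In Cd79a barcodes 54 against 17 UMIs gave 15.6 (8.91 to 28.7), the largest ratio of any member. That value rested on 5 of the 28 low barcodes, with 18, 17, 12, 5 and 2 Ppm1h UMIs, each of which held at most 2 Cd79a UMIs and between 2 and 4 T marker UMIs. Those with 18, 17 and 12 Ppm1h UMIs also held 2, 3 and 1 UMIs of Cd8a or Cd8b1.

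Mllt3 (ENSMUSG00000028496, chromosome 4, 87769925 to 88033407) encodes a reader of acylated histones that belongs to the super elongation complex. Its ratios were 4.58 (3.97 to 5.30) in Cd4-only barcodes, from 13.2 against 2.87 per 10000, and 5.95 (5.27 to 6.72) in Cd8-only barcodes, from 7.92 against 1.33. Foxn3 (ENSMUSG00000033713, chromosome 12, 99190081 to 99563667) encodes a forkhead transcriptional repressor. Foxn3 had ratios of 4.70 (4.12 to 5.37), from 15.8 against 3.37, and 3.66 (3.22 to 4.17), from 5.46 against 1.49. In Cd79a barcodes Foxn3 was the member with most UMIs, 138 in low and 190 in high, with a ratio of 3.57 (2.84 to 4.47). Between 2000 and 4000 UMIs the Cd8-only ratios were 3.17 for Mllt3 and 2.07 (1.53 to 2.85) for Foxn3.

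Auts2 (ENSMUSG00000029673, chromosome 5, 131437333 to 132543220) encodes a component of a variant Polycomb repressive complex. It was concentrated in few barcodes, and it was higher in Cd8-only barcodes. There it had 4.23 (3.77 to 4.73) in low and 0.438 (0.374 to 0.509) in high barcodes, a ratio of 9.66 (7.98 to 11.7), the largest of the 9 measured in that class. A UMI was seen in 32.4% of low and 18.5% of high Cd8-only barcodes, and after thinning in 27.9% and 5.38% of them and in 9.15% and 2.23% of Cd4-only barcodes. Its Cd4-only ratio was 5.23 (3.26 to 8.57) from 55 and 28 UMIs, and Cd79a barcodes held 1 UMI in low and 7 in high.

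Hivep1 (ENSMUSG00000021366, chromosome 13, 42051899 to 42185030) encodes a zinc finger protein that binds enhancer motifs like those of NF-κB. It was sparse, with 29 and 24 UMIs in Cd4-only, 121 and 103 in Cd8-only, and 13 and 26 in Cd79a low and high barcodes. The ratios were 3.22 (1.81 to 5.78), 6.16 (4.69 to 8.08) and 2.46 (1.16 to 4.96). In Cd8-only barcodes of 2000 to 4000 UMIs it had 72 UMIs in low and 1 in high. The interval of that ratio, 6.33 to 1457, lay above 1, but its size could not be read.

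Within each class, more of the 10 genes were seen per low than per high barcode. After thinning to 1331 UMIs, the mean number of the 10 genes seen in a barcode was 5.04 in low against 2.18 in high Cd4-only barcodes, 4.35 against 1.44 in Cd8-only and 2.29 against 1.08 in Cd79a barcodes. At least 3 of the genes were seen in 95.8% (91.0 to 98.4) against 38.4% (32.0 to 45.1) of Cd4-only, 89.7% (84.7 to 93.5) against 14.5% (11.6 to 17.9) of Cd8-only, and 25% (10.7 to 44.9) against 6.41% (2.11 to 14.3) of Cd79a barcodes. The signal of the 10 genes together thus came from most low T barcodes and not from a few. Single genes differed: after thinning, Inpp4b was seen in 93.7% of low Cd4-only and 87.7% of low Cd8-only barcodes. Hivep1 was seen in 7.75% and 13.7%, Auts2 in 9.15% and 27.9%, Ust in 18.3% and 45.6%, and St8sia6 in 44.4% and 1.47%.

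Counts per barcode that were not divided by the barcode total were also higher in low barcodes. The 10 genes together had a mean of 32.2 UMIs per low and 11.2 per high Cd4-only barcode, 29.3 and 10.5 per Cd8-only barcode and 12.6 and 5.01 per Cd79a barcode. Low barcodes therefore held more UMIs of these genes in absolute number while holding fewer UMIs in all. St8sia6 in Cd8-only barcodes was an exception at 0.0245 against 0.0279 UMIs per barcode, as were St8sia6 and Auts2 in Cd79a barcodes. Ribosomal protein genes moved the other way, with a low over high ratio of mean UMIs of 0.0695 in Cd4-only and 0.0457 in Cd8-only barcodes. The barcodes were split by the share of these genes, so this difference follows from the split. A list of 10 short cytoplasmic mRNAs (Actb, B2m, Eef1a1, Tpt1, Fau and others) stood at 0.109 and 0.0874. Of these, Fau also encodes a ribosomal protein but was not counted in the share, so the list was not free of such genes. The 13 mitochondrial genes were at 1.02 and 1.05, and the 5 nuclear RNAs, most of whose UMIs were Malat1, at 1.51 and 1.64. A list of 20 other long lymphocyte genes stood at 2.47 and 2.36, beside 2.88 and 2.78 for the 10 genes.

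**Figure D2:**
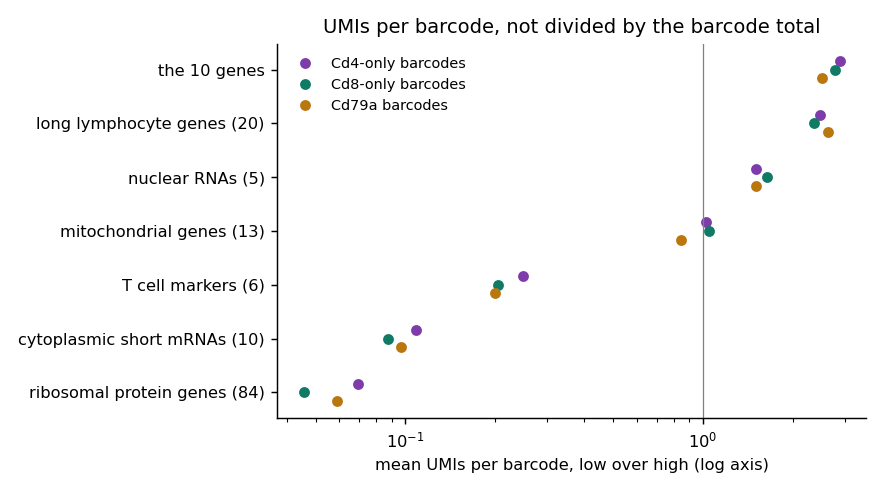
Mean UMIs per barcode in low over high barcodes (log axis), not divided by the barcode total, for the 10 genes and for gene lists, in Cd4-only, Cd8-only and Cd79a barcodes. The 10 genes lie at 2.88, 2.78 and 2.51, and ribosomal protein genes, by whose share the barcodes were split, under 0.1.

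Across finer bins of the ribosomal protein share, the summed rate changed most between the bins on each side of 10% as a fold. In Cd4-only barcodes it was 135, 105 and 96.5 per 10000 at shares of 0 to 2, 2 to 5 and 5 to 10%, and then between 19.0 and 30.2 in the 5 bins from 10% upward. Cd8-only barcodes gave 95.7, 80.1 and 62.3 below 10% and between 12.4 and 22.4 above it. In Cd79a barcodes the rates were 63.6, 35.0 and 26.9 below 10% and between 7.70 and 12.3 above it. Close to the limit the step was less sharp: Cd4-only barcodes held 68.8 (55.6 to 84.2, 6 barcodes) at 8 to 10% and 34.2 (26.7 to 43.0, 6 barcodes) at 10 to 12%. Cd8-only barcodes held 43.0 (37.4 to 49.1, 13 barcodes) and 41.3 (35.3 to 47.9, 11 barcodes), so no step was detectable there at this depth.

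**Figure D3:**
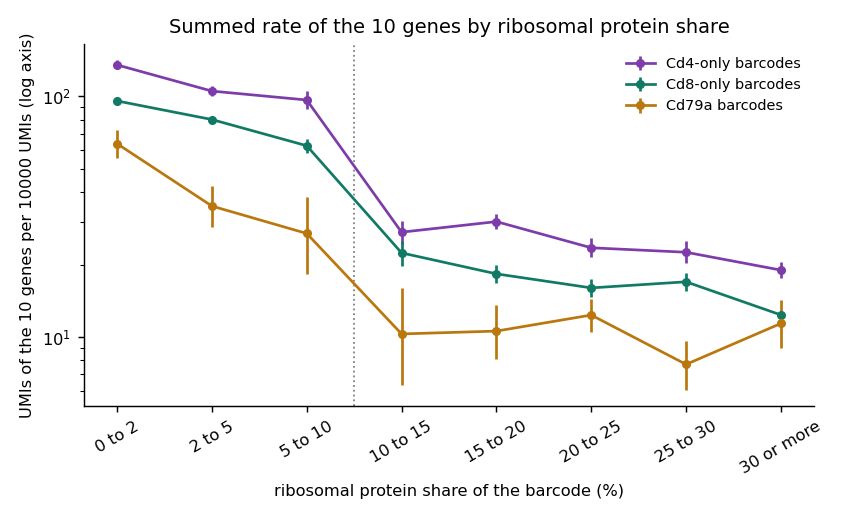
Summed UMIs of the 10 genes per 10000 UMIs (log axis) in bins of the ribosomal protein share of the barcode, for Cd4-only, Cd8-only and Cd79a barcodes, with 95% exact Poisson intervals and a dotted line at 10%. Cd4-only barcodes fall from 135 in the lowest bin to 19.0 in the highest.

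T cell receptor clonotypes, a readout that the choice of genes did not use, divided the low barcodes further. Among low Cd4-only barcodes, the summed rate was 99.5 per 10000 in the 52 with a clonotype and 126 in the 90 without, a ratio of 0.787 (0.740 to 0.837). Among low Cd8-only barcodes it was 62.9 in 53 and 90.8 in 151 barcodes, a ratio of 0.693 (0.653 to 0.736). Barcodes with a clonotype also had a higher median ribosomal protein share, 3.27% against 2.06% and 3.69% against 2.13%, and a greater median depth, 3096.5 against 2603 and 4064 against 3099 UMIs, and the part of both in the ratio was not tested. Camk4 in Cd4-only barcodes went the other way, at 16.2 with and 13.3 without a clonotype, a ratio of 1.22 (1.03 to 1.44), and so did Hivep1, with 15 and 14 UMIs and a ratio of 1.60 (0.720 to 3.58). In high Cd4-only barcodes the ratio was 1.07 (0.862 to 1.35), with 11 barcodes lacking a clonotype. In high Cd8-only barcodes it was 0.776 (0.692 to 0.872), with 38 barcodes lacking a clonotype. There the median share was 34.1% with and 21.9% without a clonotype, and the median depth 7784.5 and 4014.5 UMIs. The part of both in that ratio was likewise not tested.

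With barcodes of all depths above the limit, the 10 genes split by T class in the same way in low and high barcodes, though the Hivep1 interval in high barcodes spanned equal rates. This pattern too is a description, since the genes were chosen in CD4 and CD8 T cell clusters. St8sia6 had a Cd4-only over Cd8-only ratio of 89.8 (38.0 to 279) in low and 35.7 (20.6 to 67.0) in high barcodes. Camk4 (2.59 and 2.32), Ext1 (2.75 and 2.54), Foxn3 (2.90 and 2.26), Mllt3 (1.66 and 2.16) and Inpp4b (1.61 and 1.84) were also higher in Cd4-only barcodes, by smaller ratios. Higher in Cd8-only barcodes, by ratios of Cd8-only over Cd4-only in low and high, were Ust (3.25 and 1.89), Auts2 (3.04 and 1.65), Hivep1 (2.27 and 1.19) and Ppm1h (1.85 and 1.20). The low and high intervals did not overlap for Ppm1h (1.66 to 2.07 and 1.04 to 1.38), but between 2000 and 4000 UMIs its ratios were 1.93 and 1.98. At that depth the St8sia6 ratio of high barcodes was 11.5 (3.69 to 57.6). Hivep1 had 5 UMIs in Cd4-only and 1 in Cd8-only high barcodes, a Cd4-only over Cd8-only ratio of 3.66 (0.409 to 173) in the opposite direction. The same ratio of high barcodes spanned equal rates there for Mllt3, at 1.35 (0.939 to 1.97), and Auts2, at 0.569 (0.180 to 1.72).

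**Figure D4:**
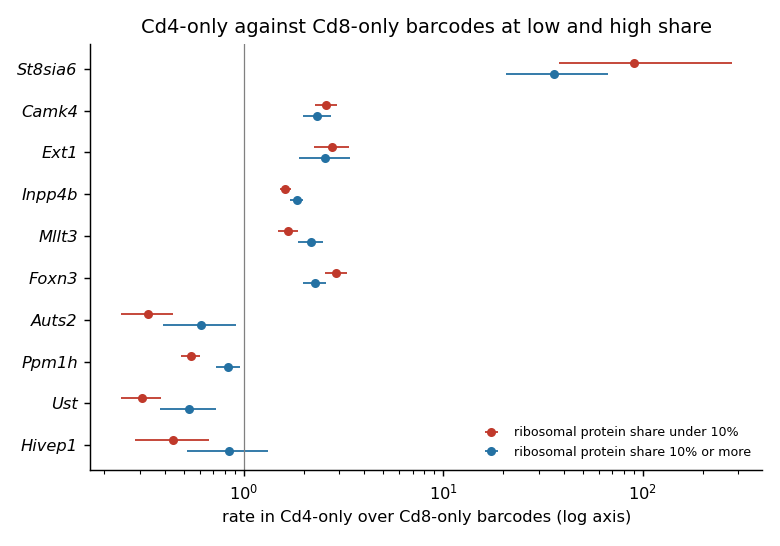
Rate of each gene in Cd4-only over Cd8-only barcodes (log axis) within low (red) and high (blue) barcodes, with 95% exact intervals and a line at equal rates. St8sia6 stands at 89.8 and 35.7, and Auts2, Ppm1h, Ust and Hivep1 lie to the left of the line.

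Cd79a barcodes were examined more closely because few UMIs defined them. With at least 2 Cd79a UMIs and no UMI of Cd4, Cd8a, Cd8b1 or Cd3e required, 20 low and 59 high barcodes were left, of which 0 had a clonotype. Their summed ratio was 3.49 (2.85 to 4.27), from 31.3 against 8.96 per 10000. Foxn3 gave 119 of the 166 UMIs in low barcodes, with a ratio of 4.19 (3.26 to 5.37), and Inpp4b (31 against 39 UMIs) had 4.03 (2.43 to 6.62). Camk4 and Auts2 had 0 UMIs in low and high barcodes, with an exact upper limit of 0.695 per 10000 in low and 0.137 in high barcodes. Ppm1h and Ust had 0 UMIs in low and 2 and 7 in high barcodes, so that their large ratios in the wider Cd79a class were not found here. Hivep1 stood at 0.965 (0.241 to 2.86).

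Barcodes under the limit gave the level of the genes outside called barcodes. The 20532 barcodes of 10 to 50 UMIs, taken as free RNA, had a ribosomal protein share of 16.0% and held 15.9 UMIs of the 10 genes per 10000. This was under the summed level of high Cd4-only barcodes and above that of high Cd8-only and Cd79a barcodes. The 1908 barcodes from 200 UMIs up to the limit had a ribosomal protein share of 4.67% and held 13.1 (12.3 to 14.0) of the genes, with 217 UMIs of 5 platelet markers per 10000. Pooled over these smaller barcodes, a low ribosomal protein share was not accompanied by high levels of these genes: those with a share under 10% had 12.8 and those of 10% or more 16.9 (13.4 to 21.1). They were not split by class, and T cell markers gave 5.90 (5.36 to 6.49) per 10000, so small T cell barcodes were not compared.

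All 10 genes are long. In the GENCODE annotation, matched by Ensembl ID, their genomic spans ran from 141 kb (Hivep1) to 1106 kb (Auts2) with a median of 275 kb, against a median of 28.5 kb over the genes measured in Cd4-only and 26.3 kb in Cd8-only barcodes. Summed exon length ran from 7.69 to 22.9 kb with a median of 11.8 kb, against 6.82 and 6.49 kb, and introns made up at least 93.4% of each span. With the genes of each class ordered by span and cut into 10 groups of equal size, every member lay in the longest group in each class where it was measured. With genes ordered by exon length they fell between groups 6 and 10 in Cd4-only barcodes.

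Over all genes the low over high ratio increased with span. The median ratio was 0.403 in the shortest and 3.20 in the longest group in Cd4-only barcodes, 0.494 and 4.11 in Cd8-only barcodes and 0.218 and 4.17 in Cd79a barcodes. In the longest group 81.1%, 88.5% and 91.7% of genes reached a ratio of 2. Across genes, which share libraries and are no replicates, Spearman's rho between span and ratio was 0.707 (7738 genes), 0.702 (9615 genes) and 0.775 (3982 genes), and with summed exon length 0.583, 0.555 and 0.641. Within 3 groups of genes of like UMI count, rho with span ran from 0.547 to 0.825 in Cd4-only barcodes. Between 2000 and 4000 UMIs it was 0.742, 0.715 and 0.809. With genes cut into 3 groups by exon length and 3 by span, the median ratio in Cd4-only barcodes still differed by span, at 0.522 in the shortest and 1.88 in the longest spans among the genes with least exon sequence. It also differed by exon length within a span group. From least to most exon sequence it went from 0.522 to 0.999 in the shortest and from 1.88 to 2.61 in the longest spans.

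Set against the group of genes with the longest spans, the members stood out less. In Cd4-only barcodes their ratios were between 1.01 (Hivep1) and 2.55 (Ext1) times the median of the longest group, which was 3.20, in Cd8-only barcodes between 0.892 (Foxn3) and 2.35 (Auts2) times the median of 4.11, and in Cd79a barcodes between 0.589 (Hivep1) and 3.74 (Ppm1h) times the median of 4.17. The Ppm1h value of Cd79a barcodes rested on the few low barcodes with T marker UMIs described above. Ext1 ranked 6 of 774 genes of the longest group in Cd4-only and 31 of 962 in Cd8-only barcodes, whereas Foxn3 ranked 591 of 962 in Cd8-only barcodes. Span and ratio moved together over all genes, and what part length had in the members' ratios was not tested. The group of longest spans matched the members in neither span nor UMI count. Its median span was 178410 bases in Cd4-only and 169520 bases in Cd8-only barcodes, against 275 kb for the members. With genes grouped by UMI count, the longest had a median ratio of 2.18 at the lowest and 3.77 at the highest counts (Cd4-only). In Cd8-only barcodes these were 3.22 and 4.60. Most members had counts in the highest group, and the part of count was not tested.

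**Figure D5:**
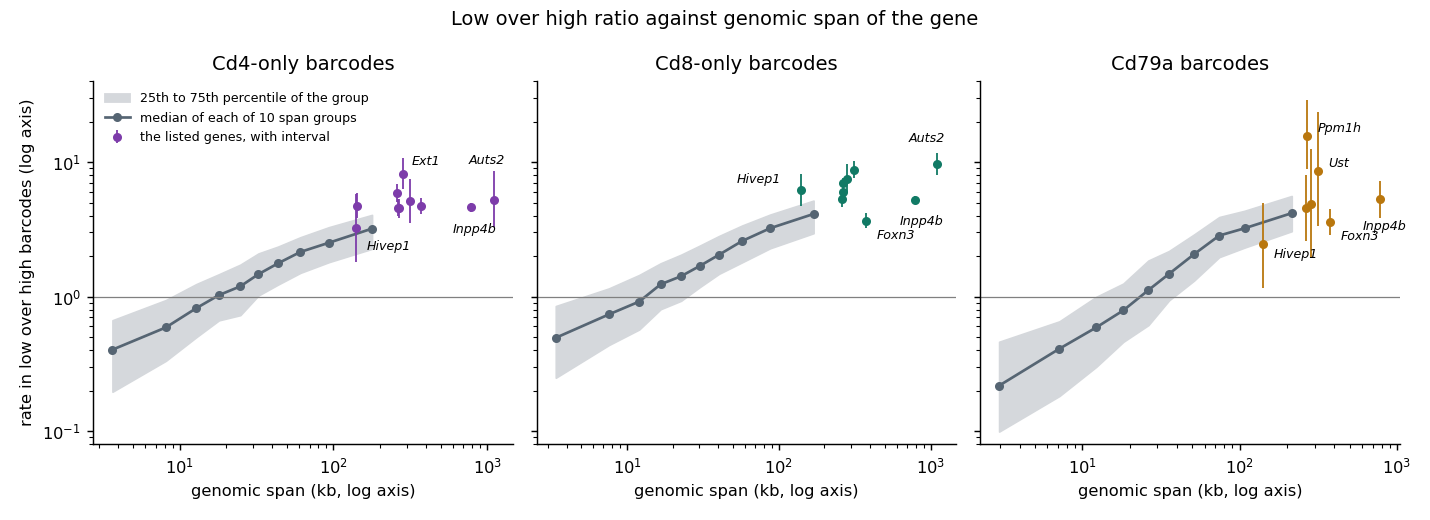
Low over high ratio of rates against genomic span (both log axes) in the 3 barcode classes: grey points are the median of each of 10 equal groups of all measured genes ordered by span, shading runs from the lower to the upper quartile of each group, and colored points are the members with 95% exact intervals. The grey medians run from 0.403 to 3.20 in Cd4-only barcodes, and Ext1 lies at 8.16.

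Among 57 relatives of the 10 genes (other glycosyltransferases and sulfotransferases, calcium-dependent signaling genes, phosphoinositide and Ppm phosphatases, elongation, forkhead, Polycomb and Hivep family genes), 28 of 47 measured reached a ratio of 2 in Cd4-only barcodes and 2 were at 0.5 or less, with a median of 2.19. In Cd8-only barcodes 39 of 54 were higher and 3 lower, with a median of 2.93, and in Cd79a barcodes 19 of 26 were higher and 4 lower, with a median of 3.18. Over all genes 30.7%, 39.8% and 37.1% were higher and 17%, 13.2% and 25.4% lower in the 3 classes, and these shares are the background for the lists below as well. They are not matched for span, with which the share of genes reaching 2 rose, and the part of span in the counts of relatives was not tested. Aff3, a partner of Mllt3 in elongation complexes, had the largest ratios, 5.58, 6.61 and 6.07. St8sia1, a sialyltransferase like St8sia6, had 4.59 (3.62 to 5.85) in Cd4-only and 5.64 (4.65 to 6.85) in Cd8-only barcodes. These ratios are taken within a class and do not compare its level between the classes. The forkhead gene Foxp1 had 4.90 and 5.12, and Hivep2 had 3.81 and 5.39. Camk1d, a kinase relative of Camk4 with a span of 421 kb, was at 1.47 (1.32 to 1.63) and 1.28 (1.20 to 1.37), a long gene whose ratio was under 2 in all classes.

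All 20 other long lymphocyte genes reached 2 in both T classes, with medians of 3.67 and 4.85, led by Dock2 and Arhgap15. Of all genes in the longest of the 10 span groups, 81.1% and 88.5% reached 2, with medians of 3.20 and 4.11. Malat1, a nuclear RNA from a short gene of 7.89 kb, had ratios of 2.54 and 3.49. All 10 short cytoplasmic mRNAs were at 0.5 or less in all 3 classes, with medians of 0.176, 0.217 and 0.210. Of 9 measured immediate early and stress genes, 0 reached 2, and 5 in Cd4-only and 1 in Cd8-only barcodes were at 0.5 or less. Of the 5 naive T cell genes, Lef1 alone reached 2 in the T classes, at 3.23 and 3.18. These lists were likewise chosen with results of these data known.

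The 7706 genes measured in both T classes were ranked by the smaller of their 2 ratios. Genes known only by Gm or Rik names and receptor segments were left out of the naming. The 5 genes with the largest values that are no members were Cyp2c67 (8.43), Serinc5 (8.30), Plcl1 (7.64), Zc3h12b (7.41) and Epg5 (6.84). They ranked 1, 2, 4, 6 and 8 among all 7706, with Ext1 at 5 and Gm genes at ranks 3 and 7. These 5 genes had few UMIs: Cyp2c67 had 23 against 5 in Cd4-only and 37 against 23 in Cd8-only low and high barcodes, with intervals of 4.56 to 41.3 and 4.88 to 14.9. Its span of 40.2 kb was shorter than that of any member. The other members ranked between 69 (Camk4) and 719 (Hivep1), while St8sia6 was not measured in Cd8-only barcodes.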

How the data were processed

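The authors deposited unnormalized UMI counts as a gene by barcode matrix (whole numbers, made with Cell Ranger 4, per the file headers, on GRCm38, per the submitters' processing notes) and a table of T cell receptor contigs for 1 library. Whether reads in introns were counted is not given in the sources used here. The members and all gene lists were chosen with earlier results of these data known.

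Barcodes with at least 1331 UMIs were used, a limit computed by sorting barcodes by UMIs, taking percentile 99 of the top 3000 and dividing it by 10. The limit does not test for empty droplets. Ribosomal protein share was the percentage of UMIs in 84 ribosomal protein genes. UMIs were pooled per class, at low and high share, and divided by all UMIs. Rates have exact Poisson intervals, ratios exact conditional binomial intervals and shares Clopper-Pearson intervals, each of 95%, and cover counting error only. Genes needed 20 UMIs in low and high barcodes of a class together. No test was run, since there is 1 library of 1 mouse. For shares of barcodes with a gene, each barcode was thinned to 1331 UMIs. The text names all 10 members, the 5 genes of largest ratio in both T classes (genes with Gm or Rik names and receptor segments left out) and, of each list, some genes of highest and lowest ratio, and an item among these is not reported here. St8sia1, Camk1d, Foxp1, Hivep2, Malat1 and Lef1 were named after their values were seen. Gene lengths came from GENCODE (GRCm39) by Ensembl ID, with over 99% of genes matched, and positions and promoters from RefSeq (GRCm38.p6) by symbol. Scrublet, run in Scanpy 1.11.5, marked 10 barcodes (0.625%) as doublets, which were kept except in 1 alternative. The interval code was tested on simulated data. Python 3.11.15, NumPy 2.4.6, SciPy 1.17.1 and pandas 2.3.3 were used.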

Additional observations from a re-analysis of the deposited data

Results flagged for a closer look

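In Cd79a barcodes 2 of the 10 genes had a low over high ratio under 1, whereas both were above 1 in the T classes, St8sia6 in Cd8-only barcodes at 1.87 (0.527 to 5.50) from 5 and 14 UMIs. St8sia6 had a ratio of 0.351 (exact interval 0.00830 to 2.31) from 1 UMI in low and 14 in high barcodes, and Auts2 a ratio of 0.702 (0.0156 to 5.46) from 1 and 7 UMIs. Both intervals span 1, and the difference between the classes was not tested. The 10 genes also gave a signal in barcodes that no comparison of the T classes used, with 15.9 UMIs per 10000 in barcodes of 10 to 50 UMIs and 13.1 in barcodes from 200 UMIs up to the limit.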

How the results depend on the processing

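No paired analysis was possible because there is 1 library with no replicate numbers. The summed low over high ratio of the 10 genes stayed above 1 under every alternative run. Changing the denominator rescales the ratios of all genes of a class by the same factor. The cause of each other shift below was not tested. Against 4.86, 5.92 and 4.44 in Cd4-only, Cd8-only and Cd79a barcodes, it was 3.76, 4.12 and 3.42 per UMIs other than ribosomal protein and mitochondrial ones, and 4.11, 5.41 and 3.72 with barcodes split at 15%. In the 2 T classes it was 4.32 and 5.57 when split at 5%, 3.73 and 3.28 in barcodes of 2000 to 4000 UMIs, 4.35 and 5.35 as a mean over barcodes, and 4.18 and 4.60 in clonotyped barcodes. It was 4.61 in Cd4-only barcodes with fewer than 2 other-lineage UMIs (platelet, erythroid, monocyte and neutrophil markers). In Cd8-only barcodes it was 6.38 for shares under 5% against 15% or more. There it was 6.22 with free RNA subtracted at an assumed 5% of each barcode (which put St8sia6 in Cd8-only barcodes at 4.30 against 1.87). In the stricter Cd79a class it was 3.49. Leaving out 1 gene at a time gave 4.74 to 5.04, 5.64 to 6.33 (without Ppm1h and without Inpp4b, and 6.19 without Foxn3) and 3.93 to 5.25 (without Foxn3). Of the single genes, 7 values changed direction, most of them on few UMIs. St8sia6 did so in Cd79a barcodes with a limit of 1000 UMIs (1.01) and between 2000 and 4000 UMIs (1.90). It also did in Cd8-only barcodes split at 5% (0.786) and between 2000 and 4000 UMIs (0.506). Auts2 did in Cd79a barcodes with fewer than 2 other-lineage UMIs (2.60) and without the barcode with most UMIs of the genes (1.27). Hivep1 did in the stricter Cd79a class (0.965), where Ppm1h and Ust had 0 UMIs in low barcodes. Of 120 values of single genes under the alternatives, 120 were above 1 in Cd4-only and 118 in Cd8-only barcodes, and 94 of 111 in Cd79a barcodes. The genes were chosen on this contrast and the alternatives reuse many of the same barcodes, so nothing is read from these counts. Leaving out predicted doublets changed no Cd4-only value. Over all genes the median ratio was itself above 1, at 1.33, 1.60 and 1.29. Per UMIs other than ribosomal protein and mitochondrial ones, with those genes left out, it was 1.03, 1.12 and 1.05.

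Counts of all genes past a ratio of 2, which were 2385, 3836 and 1478 higher and 1321, 1272 and 1011 lower in low barcodes, moved by more than 1.5 times as follows. With a ratio of 4 they were 396, 1066 and 508 higher and 508, 480 and 546 lower. Between 2000 and 4000 UMIs, an alternative chosen after seeing the data, 1897 (Cd8-only) and 594 (Cd79a) were higher and 815, 744 and 385 lower, with fewer genes measured (5216, 5263 and 1439), so that the share higher was 32.9%, 36.0% and 41.3% against 30.7%, 39.8% and 37.1%. Per UMIs other than ribosomal protein and mitochondrial ones 1503 and 2295 were higher in the T classes and 1970 lower in Cd8-only barcodes. With at least 50 UMIs per gene 557 were higher and 476 lower in Cd79a and 869 lower in Cd4-only barcodes, with 1 UMI needed in both low and high 3620 (Cd4-only) and 3544 (Cd79a) were higher, and split at 15% 842 were lower in Cd4-only barcodes. The median ratios of the longest and the shortest of the 10 span groups of genes moved by less than 1.5 times in all 3 classes under the alternatives run (exon length, the other denominator, and 2000 to 4000 UMIs). St8sia6, Camk4 and Auts2 had fewer than 20 UMIs in Cd79a barcodes, and whether depth or a low level of these genes lay behind this was not tested. With 1 library the split and the depth, clonotype and marker levels that moved with it cannot be told apart.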
